A study of Mus musculus with 12 samples.

Results

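The genes described here were higher in mouse embryonic stem (ES) cells after knockdown (KD) of either Mbd3 or Chd4, 2 subunits of the NuRD complex. They were chosen by their measured levels. A gene was taken when its level, the log2 of the array's processed signal over the 75th percentile of that array, was at least 0.8 above the mean of the control arrays on each of the 4 arrays labelled Mbd3 KD or Chd4 KD, with the probe above background on all 4. Of 19215 named genes tested, 254 met these conditions, which is 1.32% (all 29546 genes tested include unnamed transcripts). The 4 of these that belong to a set of 5 genes kept apart by name were not included, leaving 250 members. The values against control that chose the members are given as a description. Where limma calls on those arrays are counted, the share of all genes stands beside them and nothing is read from the members' counts.

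Expression was measured on 12 one-colour Agilent arrays, 2 for each of 6 KDs, which covered 39429 probes. The cells were E14 mouse ES cells, grown without feeders on gelatin in medium with serum and LIF, and transfected for 48 hr with esiRNAs (pools of short interfering RNAs made by enzymatic digestion of a long double-stranded RNA). The esiRNAs were directed against EGFP, the only control, or against Dnmt1, Tet1, Mbd3, Mbd2 or Chd4. Every group therefore shared the cell line, the transfection and the time, and every difference from control rests on the same 2 EGFP KD arrays. A KD leaves part of the target in place, and these are bulk measurements, in which a change in all cells and a larger change in some cells cannot be told apart.

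NuRD joins a nucleosome remodelling ATPase, Chd4 in ES cells, to histone deacetylases, and Mbd3 is the scaffold that links both activities. The complex is best known for restraining transcription, and in ES cells it is needed for an orderly exit from self-renewal. Mbd2 forms a NuRD complex of its own that binds methylated DNA. Dnmt1 maintains DNA methylation through replication, and Tet1 oxidises methylcytosine to hydroxymethylcytosine.

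The level of the targeted gene was checked first. Mbd3 stood at 4.33 and 4.49 on the EGFP KD arrays and at 1.34 and 1.56 on the Mbd3 KD arrays, and Chd4 at 4.13 and 3.97 against 2.5 and 3.04 on the Chd4 KD arrays, so neither pair overlapped. Dnmt1 was at 1.06 and 1.13 in EGFP KD and at -0.54 and -1.25 in Dnmt1 KD. The other KDs were less clear. Tet1 stood at 2.05 and 0.25 on the arrays labelled Tet1 KD and at 0.28 and 1.88 on those labelled Mbd2 KD, in replicate order, so 1 array of each label was low. It was at 2.14 and 2.00 in EGFP KD, 1.47 and 1.18 in Dnmt1 KD and 1.36 and 1.52 in Chd4 KD. Dnmt1 was at 1.14 and 0.42 in Tet1 KD and at 0.18 and 1.15 in Mbd2 KD, thus also lower on the arrays with the lowest Tet1. Mbd2 itself was at -0.85 on both arrays labelled Mbd2 KD and at -0.71 and -0.83 in EGFP KD. The arrays are therefore named here as labelled, and a contrast of Dnmt1 KD with the mean of all 4 arrays labelled Tet1 KD and Mbd2 KD is preferred. Its difference is the same if labels were exchanged between those groups. Its SE and p-values are not, because the spread was estimated within the labelled groups.

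The 2 control arrays lay on different slides and differed from each other for many members. Slide 1 held the first replicates of EGFP, Mbd2, Dnmt1 and Mbd3 KD. Slide 2 held the first Chd4 KD replicate, EGFP KD replicate 2 and both Tet1 KD arrays. Slide 3 held the second replicates of Dnmt1, Mbd3, Mbd2 and Chd4 KD and no control. The EGFP KD arrays were within 0.5 of each other for 136 of the 250 members (54.4%, against 69.4% of all genes tested). Replicate 2 was higher by more than 0.5 for 99 members (39.6%, against 24.5%) and replicate 1 for 15 (6%, against 6.1%). The limit of 0.5 was chosen after these values were seen. Within 0.1 of that limit lay 9 of the 136 members and 4 of the others.

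**Figure D1:**
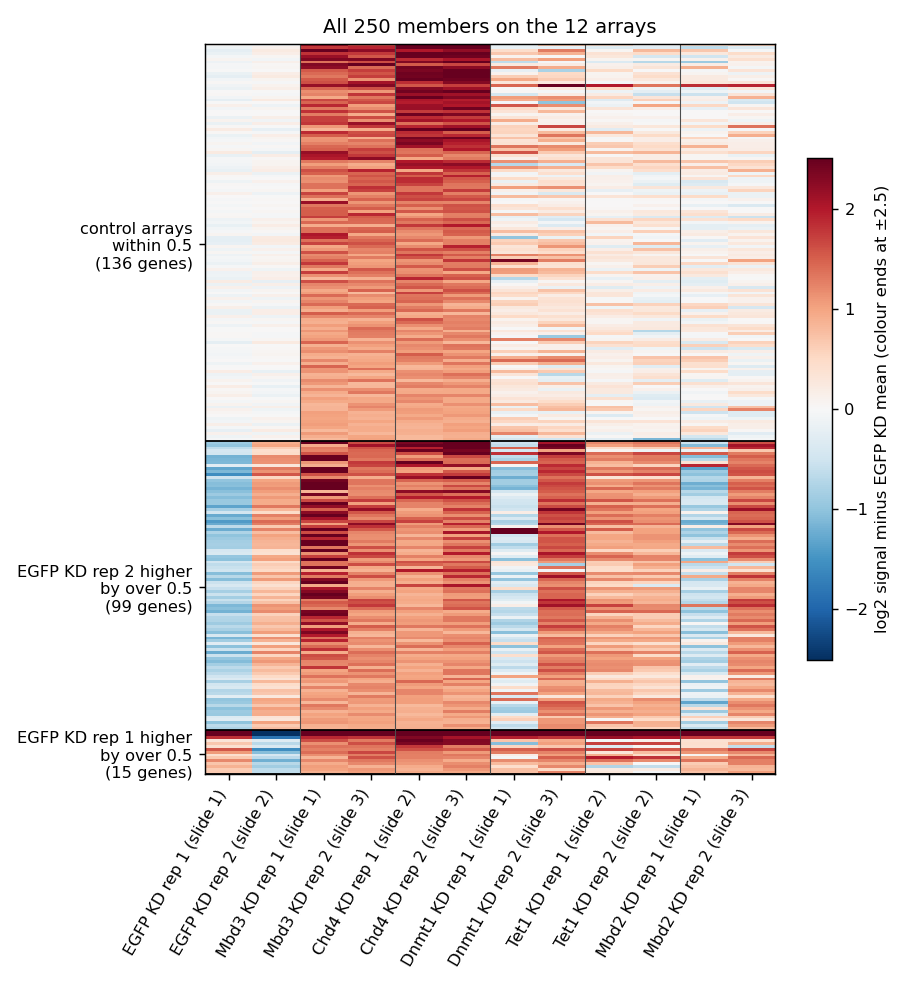
All 250 members (rows, ordered within each block by the mean difference) on the 12 arrays (columns, with the slide of each), coloured by the log2 level minus the EGFP KD mean, with the colour scale ending at 2.5 on either side. In the upper block of 136 members the control arrays were alike and the Mbd3 and Chd4 KD columns stand out, while in the middle block of 99 the first replicates of EGFP, Dnmt1 and Mbd2 KD are low together and Mbd3 KD replicate 1 and the arrays of the other slides are high.

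In the 99 members with a higher second control array, the first replicates of EGFP, Dnmt1 and Mbd2 KD, all on slide 1, were low together, with median differences from the EGFP KD mean of -0.84, -0.41 and -0.58. The fourth array of slide 1, Mbd3 KD replicate 1, was not: its median of 1.54 was the highest of the 12 arrays, and the rule required it to be high. On arrays that did not serve to choose them, replicate 2 minus replicate 1 had a median of 1.92 in Dnmt1 KD and 1.84 in Mbd2 KD, where the median over all genes was 0 and 0.02. Replicate 2 was more than 0.5 higher for 89 of the 99 in Dnmt1 KD (89.9%, against 21.9% of all genes) and for 91 in Mbd2 KD (91.9%, against 19.3%). The second replicates of both those KDs were on slide 3 and the first on slide 1.

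Vmn2r58, a vomeronasal receptor gene with no known place in ES cells, was typical. It stood at -4.21 and -1.11 in EGFP KD, at -1.06 on both Mbd3 KD arrays and at -0.85 and -0.90 in Chd4 KD. It stood at -3.49 and -1.01 in Dnmt1 KD, at -1.06 and -0.98 in Tet1 KD and at -3.69 and -1.09 in Mbd2 KD. The low values are those of 3 of the 4 arrays on slide 1. Pdx1, the homeobox factor of the pancreas, was at the floor of the scale, -4.86, on the same 3 arrays, at -0.80 on Mbd3 KD replicate 1, and between -2.56 and -2.13 on the other 8. All 11 odorant and vomeronasal receptor genes among the members (of 1060 tested), both hair keratin-associated proteins Krtap26-1 and Krtap8-1 (of 46), and hormone genes such as Gh and Pyy were among these 99. So were 3 of the 12 members with the largest mean difference, the tetraspanin Tspan18, the retinal gene Lrit1 and 2700046G09Rik. The rule was met by 1.32% of all named genes, and nothing is read from the receptor and keratin-associated counts. EGFP KD was above background on both arrays for 70 of the 99 (70.7%). The part of the slide in their differences was not tested separately from that of the KD, since each slide held 1 array or none of most groups.

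Among the 15 members with a lower second control array, single spots mattered. Crip2, Pkp2, Atg9a and Mettl8 had processed signals of -7462.4, -11998.2, -25155.0 and -29267.7 on EGFP KD replicate 2, all from neighbouring spots in rows 92 to 94 and columns 12 and 13 of that array, with the scanner software's marks for an uneven and an outlying background set. These spots took the floor value in the control, and the other 11 arrays were alike: Crip2, a LIM domain protein, lay between 3.11 and 3.93 on them. With these floor values Crip2 and Pkp2, the desmosomal plakophilin, had the 2 largest mean differences of all members. Ndufc1, a subunit of respiratory complex I, was at 2.11 on EGFP KD replicate 2 and between 4.24 and 4.66 on every other array, without such a mark.

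The remaining account gives most room to the 136 members whose control arrays were alike. On slide 1 Mbd3 KD replicate 1 was at least 0.8 above EGFP KD replicate 1 for 131 of the 136, and on slide 2 Chd4 KD replicate 1 was at least 0.8 above EGFP KD replicate 2 for 129. Both held for 124 of the 136 and for 141 of all 250. Over all 29546 genes tested the first held for 1885, the second for 1422 and both for 260. The same arrays chose the members, so nothing is read from the members' counts. The lowest of the 4 KD arrays was above the higher control array for all 136, for 72 of the 99 and for 8 of the 15, which makes 216 members, and 7.07% of all genes tested were separated in the same way. The rule itself favours such a separation.

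**Figure D2:**
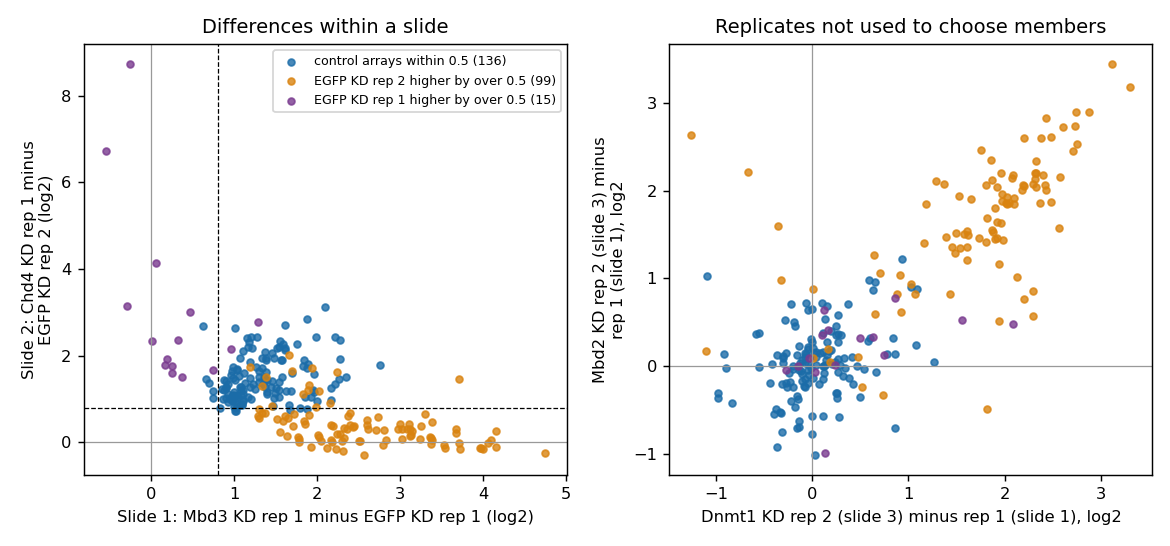
Left, for each of the 250 members, the log2 difference from control within slide 1 (horizontal) and within slide 2 (vertical), with dashed lines at 0.8. Right, replicate 2 minus replicate 1 in Dnmt1 KD (horizontal) and Mbd2 KD (vertical), arrays that the choice of members did not use. The 136 members with alike control arrays lie above 0.8 in both slides in 124 cases, on arrays that also chose them. Most of the other members lie along an axis on the left. Most of those with a higher EGFP KD replicate 2 lie far to the upper right on the right.

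Over all members the median difference from EGFP KD was 1.33 in Mbd3 KD and 1.30 in Chd4 KD on the log2 scale, and over the 136 it was 1.26 and 1.38. The medians over all genes tested were -0.03 and 0.00. By limma (p-values adjusted by the Benjamini-Hochberg method across every gene tested), 70 of the 250 members passed an adjusted p of 0.05 as higher in Mbd3 KD, where 0.474% of all genes did, and 108 as higher in Chd4 KD, where 1.97% did. The same arrays chose the members. Of the 136, 69 passed in Mbd3 KD and 105 in Chd4 KD, of the 99, 0 and 2 (17 and 20 at an unadjusted p under 0.05), and of the 15, 1 each.

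The threshold itself was not a gap in the data. Just inside it were Svep1, Rtn1 and Krt42, whose lowest differences on the 4 arrays were 0.803, 0.804 and 0.806. Just outside were C8b, Rgs8 and Olfr284 at 0.799, 0.798 and 0.791. Of the 136 members, 67 were at least 1 above control on each of the 4 arrays and 15 at least 1.5.

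In control cells the level of the 136 was close to that of the genes tested at large. Their EGFP KD level had a median of -2.03, against -1.84 over all genes tested, and ran from the floor of -4.86 to 3.43. The probe was above background on both EGFP KD arrays for 131 of them (96.3%, against 88.1% of all genes), on 1 array for 4 and on neither for 1. That gene was Ptpn5, a brain tyrosine phosphatase, which was not well above background in EGFP KD and was at least 3.11-fold higher in Mbd3 KD and at least 2.35-fold higher in Chd4 KD. Ptpn5, the chitinase-like gene Chil1, the membrane protein gene Tm6sf1, the antiviral gene Rsad2 and the proton pump subunit gene Atp6v1c2 had the lowest control levels. The highest were those of the cytosolic adenylate kinase Ak1, the intestinal glutathione peroxidase Gpx2, the surface protein Thy1 and the class I antigen H2-K1, besides Ndufc1.

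Ak1, which balances adenine nucleotides, was at 3.35 and 3.51 in EGFP KD, at 4.36 and 4.31 in Mbd3 KD and at 4.94 and 4.56 in Chd4 KD, with 1 saturated array. Gpx2 was at 2.68 and 3.17 in EGFP KD, at 4.30 and 4.38 in Mbd3 KD and at 4.34 and 4.18 in Chd4 KD. Both started from a high level, so the members were not only genes near background.

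The largest differences among the 136 came from genes with little in common by function. Tceal3, an X-linked protein related to elongation factor TFIIS, was at -2.92 and -3.06 in EGFP KD, at -0.83 and -1.35 in Mbd3 KD and at 0.06 and 0.02 in Chd4 KD, a 3.74-fold and an 8.18-fold difference. Foxj1, the regulator of motile cilia, was at -3.92 and -3.70 in EGFP KD, at -2.05 and -1.90 in Mbd3 KD and at -0.86 and -0.81 in Chd4 KD. For both genes the Chd4 KD arrays were above the Mbd3 KD arrays, and the 6 arrays of the other KDs were close to control, between -3.15 and -2.30 for Tceal3 and between -4.45 and -3.99 for Foxj1. Adssl1, the muscle adenylosuccinate synthetase, was at -2.21 and -1.88 in EGFP KD, at -0.23 and -0.28 in Mbd3 KD and at 0.55 and 0.66 in Chd4 KD. Fads3, of the fatty acid desaturase cluster, was at -4.11 and -4.01 in EGFP KD, at -1.89 and -2.51 in Mbd3 KD and at -1.58 and -1.62 in Chd4 KD.

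Others were as high or higher in Mbd3 KD. Padi4, which converts arginine to citrulline in histones and other proteins, was at -3.12 and -3.25 in EGFP KD, at -0.85 on both Mbd3 KD arrays and at -1.32 and -1.15 in Chd4 KD. Amn, the partner of cubilin in absorptive epithelia, was at -2.21 and -2.16 in EGFP KD, at 0.14 and 0.60 in Mbd3 KD and at -0.66 and -0.51 in Chd4 KD. Mal2, a transport protein of polarised epithelia, was at -4.06 and -3.62 in EGFP KD, at -1.30 and -1.61 in Mbd3 KD and at -1.83 and -1.63 in Chd4 KD. Their differences were 5.05-fold, 5.88-fold and 5.24-fold in Mbd3 KD and 3.86-fold, 3.04-fold and 4.32-fold in Chd4 KD.

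**Figure D3:**
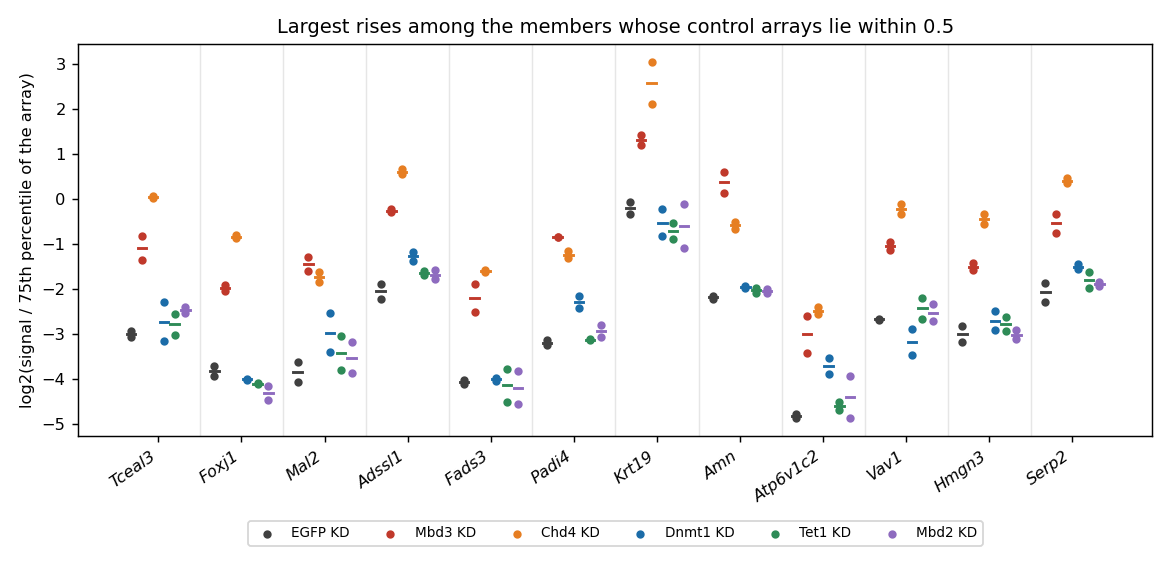
The 12 members with alike control arrays and the largest mean difference over the 4 NuRD arrays, with the log2 level on each array as a dot and the group mean as a bar, coloured by KD. The red and orange dots (Mbd3 and Chd4 KD) lie above the black control dots for every gene, and the Chd4 KD dots are also above the Mbd3 KD dots for all but Mal2, Padi4 and Amn.

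The promoters of 4 of these 12 genes are shown because they span the range of CpG content within the set: Fads3 and Adssl1 had the most CpG pairs and Tceal3 and Padi4 the fewest among the 8 of the 12 with an entry. Each runs from 250 bases before to 50 bases after the annotated start, 5′ to 3′ on the strand of the gene, from RefSeq on GRCm38.p6. Capitals mark matches, on either strand, to the TATA box TATAAA, to CCAAT (the box of that name), to the E-box CACGTG, to the Sp1 core GGGCGG or to the AP-1 motif TGANTCA. They lie at chr19:10041298-10041597 (plus strand, Fads3), chr12:112619797-112620096 (plus, Adssl1), chrX:136590592-136590891 (plus, Tceal3, the first of 3 entries) and chr4:140774154-140774453 (minus, Padi4).
Fads3: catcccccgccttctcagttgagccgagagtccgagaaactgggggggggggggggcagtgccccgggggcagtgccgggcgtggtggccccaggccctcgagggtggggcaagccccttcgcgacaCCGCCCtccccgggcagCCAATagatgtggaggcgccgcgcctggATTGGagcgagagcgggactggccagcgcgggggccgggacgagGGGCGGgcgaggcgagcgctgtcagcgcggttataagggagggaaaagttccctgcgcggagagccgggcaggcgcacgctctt
Adssl1: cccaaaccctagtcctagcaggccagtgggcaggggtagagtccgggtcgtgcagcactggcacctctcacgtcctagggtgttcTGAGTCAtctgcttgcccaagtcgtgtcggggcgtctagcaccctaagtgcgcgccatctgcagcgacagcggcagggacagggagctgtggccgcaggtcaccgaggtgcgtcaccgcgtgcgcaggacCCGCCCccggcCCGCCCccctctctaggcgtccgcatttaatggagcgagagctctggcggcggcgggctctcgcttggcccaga
Tceal3: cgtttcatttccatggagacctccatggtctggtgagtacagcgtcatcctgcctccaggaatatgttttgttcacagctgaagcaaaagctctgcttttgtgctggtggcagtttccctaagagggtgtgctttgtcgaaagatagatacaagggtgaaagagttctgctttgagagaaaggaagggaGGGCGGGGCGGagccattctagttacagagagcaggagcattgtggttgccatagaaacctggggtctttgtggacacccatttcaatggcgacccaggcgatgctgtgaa
Padi4: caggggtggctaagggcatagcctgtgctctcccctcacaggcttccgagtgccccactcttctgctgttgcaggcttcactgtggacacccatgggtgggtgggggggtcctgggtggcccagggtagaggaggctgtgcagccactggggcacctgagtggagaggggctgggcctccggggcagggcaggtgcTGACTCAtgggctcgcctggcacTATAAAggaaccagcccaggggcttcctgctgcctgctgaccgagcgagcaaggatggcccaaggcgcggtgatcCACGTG

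The Fads3 and Adssl1 promoters held 31 and 26 CpG pairs with 73.0% and 67.7% G and C, and those of Tceal3 and Padi4 held 7 and 8 pairs with 50.3% and 66.3%. GGGCGG was matched in the first 3 and is in 50.7% of all promoters of this length. CCAAT was matched in Fads3 (38.7% of all promoters), TATAAA and CACGTG in Padi4 (12% and 8.6%), and TGANTCA in Adssl1 and Padi4 (6.9%). So no 1 of these motifs was matched in all 4. A comparison of the promoters of all members with those of other genes was void, because an entry was found for only 78.4% of the members.

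Several members are epithelial genes. Counts of members on a list, here and below, stand beside the 1.32% of all named genes that met the rule, and no list was tested. Krt19, the keratin of simple epithelia and trophectoderm, was at -0.33 and -0.06 in EGFP KD, at 1.19 and 1.43 in Mbd3 KD and at 2.12 and 3.04 in Chd4 KD, and between -1.09 and -0.11 on the 6 arrays of the other KDs. Krt19 and the homeobox gene Esx1, of placenta and testis, were the members among 24 tested genes of a trophectoderm and simple epithelium list. Esx1 was at -3.30 and -3.73 in EGFP KD, at -2.67 and -2.59 in Mbd3 KD and at -1.04 and -0.89 in Chd4 KD, a 1.85-fold and a 5.87-fold difference. Of 48 junction and adhesion genes 3 were members: Rab25, a GTPase of apical recycling, Marveld2, a protein of tricellular junctions, and Pkp2 with its marked control spot. Rab25 was at -0.64 and -0.94 in EGFP KD, at 0.69 and 0.67 in Mbd3 KD and at 0.99 and 0.68 in Chd4 KD. Of 101 keratin and keratin-related genes 7 were members, but only Krt19, Krtdap and Krt42 had alike control arrays. Other cell type markers were set beside these genes. The summed level of 12 trophectoderm markers, Krt19 included, was 3.28 to 3.41 in EGFP KD, 3.98 to 4.00 in Mbd3 KD and 4.41 to 4.67 in Chd4 KD, 1 passed as higher and 1 as lower in Mbd3 KD, 3 passed as higher in Chd4 KD, and 8 to 11 were above background on both arrays of each group, 11 in EGFP KD and 8 in Mbd3 KD. The median difference over the 12 was 0.01 in Mbd3 KD and 0.37 in Chd4 KD. The summed level of 12 primitive endoderm markers was 4.19 to 4.22 in EGFP KD, 3.75 to 3.82 in Mbd3 KD and 3.29 to 3.39 in Chd4 KD, and that of 8 epiblast and early mesoderm markers was 3.18 to 3.21, 3.40 to 3.67 and 4.13 to 4.31. Elf5 was not above background on both EGFP KD arrays. The part of such cells in the members' differences was not tested. All 12 ES cell markers were measured and 0 passed the limma test in either KD (1 in Mbd3 KD and 1 in Chd4 KD at an unadjusted p under 0.05).

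Actin regulation gave a small family. Of 7 tested genes related to gelsolin and villin, a family listed after the values were seen, 4 were members, 3 of them with alike control arrays. Gsn, which severs and caps actin filaments, was at -1.99 and -2.06 in EGFP KD, at -0.42 and 0.05 in Mbd3 KD and at -0.17 and 0.28 in Chd4 KD. Vil1, the actin bundler of microvilli, was at -3.61 and -3.37, then at -2.38 and -2.05, and at -2.01 and -1.88. Vill, a villin-like gene, was at 1.16 and 1.26, then at 2.13 and 2.09, and at 2.80 and 2.42. The fourth member, Scin, was among the 99 with a higher second control array. On the wider actin and smooth muscle list 2 of 38 tested genes were members, both already named.

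Genes best known from blood and immune cells formed another group. Of 16 tested genes of lymphoid and myeloid signalling, also listed after the values were seen, 6 were members. Vav1, a signalling protein of blood cells, was at -2.69 and -2.65 in EGFP KD, at -1.14 and -0.95 in Mbd3 KD and at -0.33 and -0.10 in Chd4 KD. Cd79b, of the B cell receptor, was at -1.24 and -1.50, then at 0.33 and -0.27, and at 0.39 and -0.10. Coro1a, an actin-binding protein of leukocytes, was at -0.39 and -0.62, then at 0.60 and 0.54, and at 0.87 and 0.88. The T cell adaptor Lat also had alike control arrays. Ptpn7 and Rac2 were among the 99 with a higher second control array. Cd74, the invariant chain of class II antigens, was at -1.29 and -1.35 in EGFP KD, at 0.04 and 0.13 in Mbd3 KD and at 0.38 and 0.03 in Chd4 KD, and Nfe2, the erythroid leucine zipper factor, was 3.92-fold and 2.78-fold higher.

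Of 28 tested interferon and antiviral genes, the members were Rsad2 and Oasl1. Rsad2, which encodes viperin, was at the floor of -4.86 on both EGFP KD arrays, at -3.03 and -3.27 in Mbd3 KD and at -3.11 and -3.06 in Chd4 KD. Oasl1, related to oligoadenylate synthetases, was at -2.47 and -2.43, then at -0.48 and -0.21, and at -1.47 and -1.16. On this list 2 genes passed as higher in Mbd3 KD (0.474% of all genes did) and 4 in Chd4 KD (1.97%), 1 passed as lower in Chd4 KD, and the medians over all 28 were -0.01 and -0.02. Among class I antigen genes 4 of 25 tested were members, namely H2-K1, H2-K2, H2-D1 and H2-Q7. These are close relatives that one probe may not tell apart.

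Padi3 and Padi4 were 2 of the 5 peptidylarginine deiminase genes tested and are neighbours in gene order. Padi3, a deiminase of hair and skin, was at -3.16 and -2.85 in EGFP KD, at -1.55 and -1.42 in Mbd3 KD and at -0.71 and -0.88 in Chd4 KD. It therefore lay higher in Chd4 KD, while Padi4 lay higher in Mbd3 KD.

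Retinoid and lipid genes contributed Crabp1, Rbp4 and Stra6 of 27 tested. Crabp1, which binds retinoic acid in the cytoplasm, was at -1.28 and -1.21 in EGFP KD, at 0.18 and 0.11 in Mbd3 KD and at 0.85 and 0.57 in Chd4 KD. Rbp4, the plasma carrier of retinol, was at -1.71 and -1.74, then at -0.52 and -0.76, and at -0.47 and -0.82. Stra6, the receptor for Rbp4, had control values of -2.53 and -3.90 that differed from each other, and its Mbd3 and Chd4 KD arrays, from -2.28 to -2.03, were close to the first of them.

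A few members act on chromatin. Chd5, a relative of Chd4 found in neural NuRD, was the member among 17 NuRD subunit genes, at -0.95 and -0.70 in EGFP KD, 0.04 and -0.01 in Mbd3 KD and 0.37 and 0.56 in Chd4 KD. Phf19, a Polycomb-like protein, was at -0.21 and -0.27, then at 0.76 and 1.02, and at 0.69 and 1.07. Hmgn3, a nucleosome-binding protein, was 2.82-fold higher in Mbd3 KD and 5.84-fold higher in Chd4 KD. Single members came from other lists: Zic2 among 19 epiblast and early mesoderm genes, Amn among 19 of primitive endoderm, Btg2 among 31 p53 targets, and Slc45a1 among 356 solute carriers. None of the 23 tested genes of naive pluripotency was a member, and the lists of neural, germline, cleavage-stage, imprinted, antioxidant, ligand, and S100 and annexin genes had none either. In limma 3 of the 23 naive pluripotency genes passed as lower in Chd4 KD and 0 in Mbd3 KD. At an unadjusted limma p under 0.05 there were 8 of them in each KD, either direction. Genes kept apart by name could not count as members of any list, so a list without members may still hold a gene that met the rule. With 1.32% of all named genes meeting the rule, nothing is read from lists with 0 or 1 members.

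Members differed in how high they stood in Chd4 KD and in Mbd3 KD. Over the 136 the median of Chd4 KD minus Mbd3 KD was 0.14, against 0.06 over all genes, and both Chd4 KD arrays lay above both Mbd3 KD arrays for 61 members (18.0% of all genes) and below them for 24 (14%). The difference was over 0.5 in favour of Chd4 KD for 32 of the 136 (16.6% of all genes) and in favour of Mbd3 KD for 7 (6.81%). Adam8, a membrane metalloprotease, was at -3.37 and -3.38 in EGFP KD, at -2.21 and -2.29 in Mbd3 KD and at -0.96 and -0.67 in Chd4 KD. Crxos, a homeobox gene, was at -1.49 and -1.36, then at -0.49 and -0.12, and at 1.27 and 0.88. In the other direction stood Amn and Oasl1, for which Chd4 KD minus Mbd3 KD was -0.95 and -0.97. These differences rest on arrays that chose the members and on different slides, and no test is given.

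The other 3 KDs were compared next. Their medians against EGFP KD over the 136 were 0.33 for Dnmt1, 0.13 for Tet1 and 0.11 for Mbd2, with -0.01, 0.09 and 0.00 over all genes. These values, and the counts at 0.8 that follow, share the control arrays that chose the members. The counts were not made over all genes tested, so nothing is read from them. Both Dnmt1 KD arrays were at least 0.8 above the EGFP KD mean for 16 of the 136, and both Tet1 KD and both Mbd2 KD arrays for 1, the same gene. That gene was Trim40, of the tripartite motif ubiquitin ligases, which was at -4.40 and -4.21 in EGFP KD and between -2.97 and -1.58 on all of the other 10 arrays, so that only the control was low. On slide 2 the mean of the Tet1 KD arrays was 0.09 (median) above EGFP KD replicate 2 over the 136 members, and 0.10 over the 99.

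The difference of Dnmt1 KD from the arrays labelled Tet1 KD and Mbd2 KD used no array of the rule. The limma p-values of this contrast and the next did, because the spread of each gene was estimated from all 12 arrays. Control arrays that are alike lower that estimate and control arrays that differ raise it. Counts by p-value are therefore not independent of the split into 136, 99 and 15, and nothing is read from their contrast. Over the 136 the median difference was 0.24 on the log2 scale, against -0.06 over all genes tested, and it was above 0 for 110 of the 136 (80.9%, against 38.1% of all genes). It was 0.09 over all 250 members and -0.16 over the 99 with a higher second control array. No member passed an adjusted p of 0.05 in limma, where 0.0% of all genes did, and the lowest adjusted p of a member was 0.158. At an unadjusted p under 0.05 in limma, 52 of the 250 members were higher in Dnmt1 KD, where 2.85% of all genes were, and 5 were lower, where 2.04% were. Of the 136, 48 were higher (35.3%) and 5 lower, while of the 99 there were 3 (3%) and 0. Both Dnmt1 KD arrays lay above all 4 arrays labelled Tet1 KD or Mbd2 KD for 65 of the 250 members and for 56 of the 136, and for 5.1% of all genes.

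Dnmt1 and Mbd2 KD each had 1 array on slide 1 and 1 on slide 3, so their contrast is balanced over those slides. Its median was 0.26 over the 136, against 0 over all genes, and Dnmt1 KD was higher on both slides for 87 of the 136 (64%) and for 149 of all members (59.6%), against 25.1% of all genes. Within slide 1 the median over the 136 was 0.26 and within slide 3 it was 0.28. Again none of the members passed an adjusted p of 0.05 in limma (0.0% of all genes). At an unadjusted p under 0.05, 47 members were higher, where 2.41% of all genes were, and 4 lower, where 1.04% were.

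**Figure D4:**
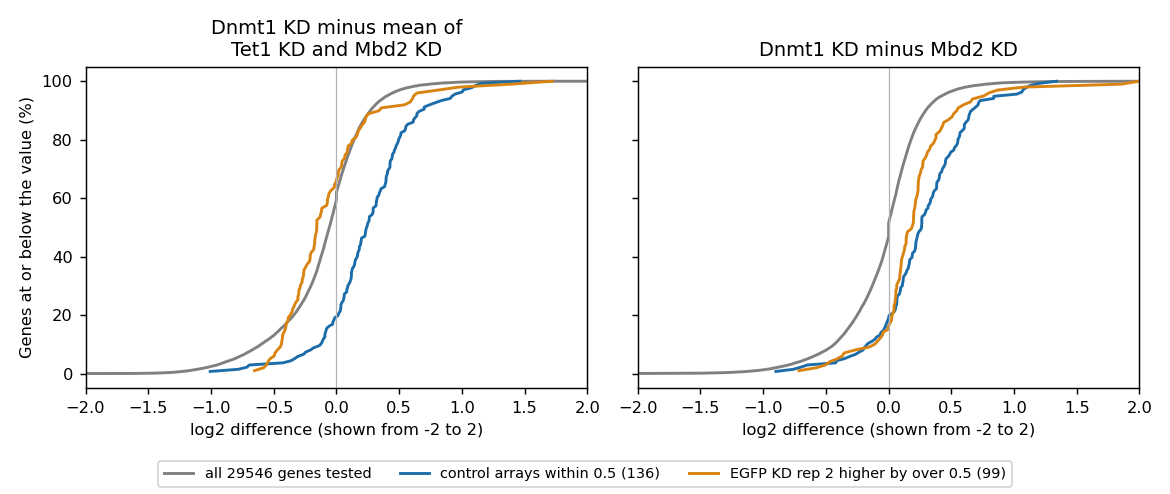
Share of genes (vertical, %) at or below each log2 difference (horizontal) for Dnmt1 KD minus the mean of Tet1 KD and Mbd2 KD (left) and Dnmt1 KD minus Mbd2 KD (right), for all 29546 genes tested (grey), the 136 members with alike control arrays (blue) and the 99 with a higher EGFP KD replicate 2 (orange). The blue curve lies to the right of the grey curve in both panels, with medians of 0.24 and 0.26, whereas the orange curve does so only on the right.

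The 4 class I antigen genes were among the members that also stood high in Dnmt1 KD. H2-K2 was at 0.27 and 0.36 in EGFP KD, at 1.40 and 1.18 in Mbd3 KD, at 1.71 and 1.47 in Chd4 KD and at 1.56 and 1.52 in Dnmt1 KD, but at 0.38 and 0.52 in Tet1 KD and at 0.51 and 0.32 in Mbd2 KD. Its Dnmt1 KD arrays lay among those of the NuRD KDs, and the Tet1 and Mbd2 KD arrays lay near control. Dnmt1 KD exceeded the mean of Tet1 and Mbd2 KD by 1.11 with an SE of 0.11 (limma, adjusted p = 0.158), the lowest adjusted p of any member. H2-K1 was at 2.44 and 2.04 in Dnmt1 KD and between 0.95 and 1.49 in Tet1 and Mbd2 KD, a difference of 1.01 with an SE of 0.20 (limma, adjusted p = 0.395). H2-Q7 and H2-D1 differed by 0.91 and 0.70 in the same direction. Over all 25 class I genes tested the median of this difference was 0.41, so it was shared by genes that were not members.

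Other members had the same order of KDs. Tsx, a testis-expressed gene of the X inactivation centre, was at -3.42 and -3.18 in EGFP KD, at -2.03 and -2.17 in Dnmt1 KD and between -3.31 and -3.08 on the arrays labelled Tet1 or Mbd2 KD, with no overlap, a difference of 1.08 with an SE of 0.13 (limma, adjusted p = 0.173). Npw, which encodes neuropeptide W, was at -0.67 on both EGFP KD arrays, at 0.35 and 0.48 in Dnmt1 KD and between -0.49 and -0.34 on those 4 arrays. Rbp4 was at -0.30 on both Dnmt1 KD arrays, above its level in either NuRD KD, and between -1.89 and -1.12 on the 4. Gch1, the first enzyme of tetrahydrobiopterin synthesis, was at -0.24 and -0.46 in Dnmt1 KD and between -1 and -0.60 on the 4. Nsun7 was at -0.98 and -2.07 in Dnmt1 KD, with a difference of 1.46 that fell to 0.24 when its 2 probes were averaged. It ranged from 0.91 to 2.01 when 1 array was left out, the lower value without Dnmt1 KD replicate 1. Ctso (1.72) and Acot6 (1.39) had differences of similar size but control arrays that were not alike. Without 1 array they ranged from 1.17 to 2.27 and from 0.74 to 2.05, lowest without Mbd2 KD replicate 1.

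A few members went the other way. Car6, the secreted carbonic anhydrase, was at -3.79 and -3.67 in EGFP KD and at -2.68 and -2.81 in Mbd3 KD, and was highest in Chd4 KD at -1.57 and -1.50. It was lowest in Dnmt1 KD at -4.44 and -4.14, below the 4 arrays labelled Tet1 or Mbd2 KD, from -3.57 to -3.05, by 1.01 on average with an SE of 0.14 (limma, difference = -1.01, adjusted p = 0.246). Vil1 was at -3.60 and -3.91 in Dnmt1 KD and between -3.12 and -2.94 on the 4, a difference of -0.71. Vav1, Epx, which encodes eosinophil peroxidase, and Crym were the others of the 5 lower members. Asprv1 and Kiss1 had differences of -1.20 and -0.82, but their control arrays were not alike, and without Dnmt1 KD replicate 1 the differences were -0.16 and -0.04.

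**Figure D5:**
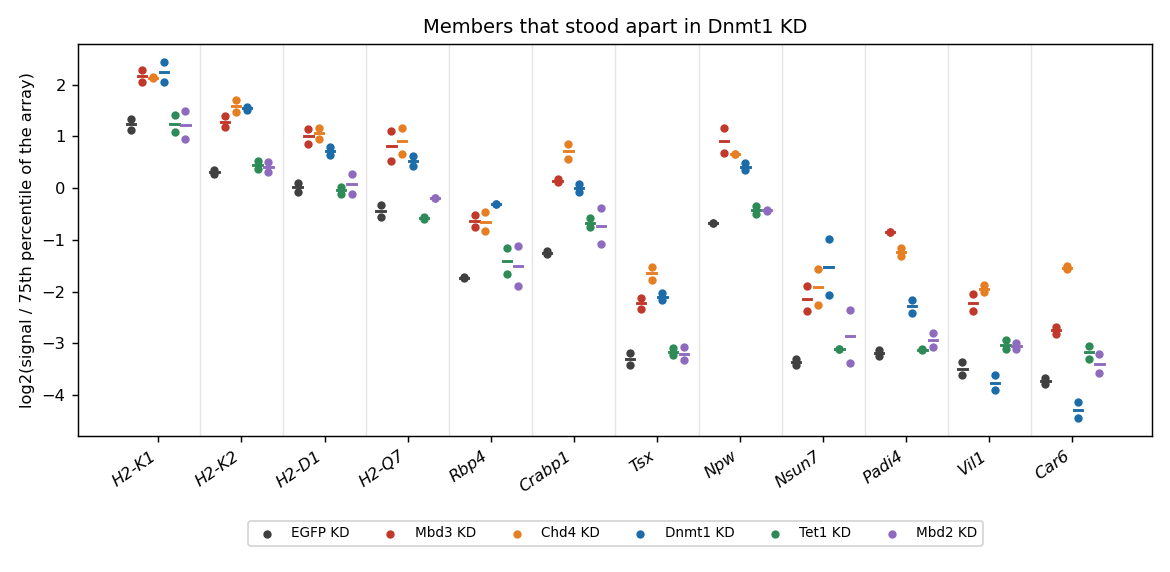
Log2 levels on each of the 12 arrays (dots, with group means as bars) for 12 members picked after their values were seen to show both directions in Dnmt1 KD. The blue dots (Dnmt1 KD) lie above the green and purple dots (Tet1 and Mbd2 KD) for H2-K2, Tsx and Npw and below them for Vil1 and Car6.

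The authors' table of processed values, whose rows carry gene names and no probe identifiers and whose scale and reference are not stated, held every one of the 136 members, 40 of the 99 and 8 of the 15, and 30.8% of the named genes tested. The values in the 4 Mbd3 KD and Chd4 KD columns were all above 0 for 132 of the 136, for 39 of the 40 and for 6 of the 8. Nsun7 was among the exceptions, at -0.052 in Mbd3 KD replicate 2. How its rows were selected is not stated in the sources used here, so these counts are a description only.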

How the data were processed

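Gene expression was profiled on 12 arrays, 2 biological replicates per labelled group. The deposited scanner files hold spot intensity from Agilent Feature Extraction 10.7.1.1, background-subtracted by that software, and the authors also deposited a table of relative values after quantile normalization (a score here, since its log base and reference are not stated), in which members were only looked up. No per-sample column was left unassigned (0). From gProcessedSignal, the values of each array were divided by its 75th percentile, floored at 0.0344 (log2 -4.86) and log2 transformed. Control spots and spots marked as feature outliers (92 to 306 per array) were left out, and spots of one probe were averaged. A probe was above background on an array when at least 0.5 of its unmarked spots were, and was kept when above background on both arrays of 1 group or more with a value on all 12 arrays. The brightest probe stood for a gene, which 71.3% of spots could be named for through RefSeq accessions.

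A 6-group model was fitted over 29546 genes with limma 3.58.1 (R 4.3.3, lmFit and eBayes, two-sided, Benjamini-Hochberg). Members were selected and summarised with Python 3.11.15, pandas 2.3.3 and numpy 2.4.6, and plots drawn with matplotlib 3.10.9. In data simulated for Chd4 KD minus EGFP KD on 29546 genes, 71 of 200 changed genes were recovered (35.5%), 0 in the wrong direction, with 5 false calls. Only 2 arrays per group limit the precision.

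The members, gene lists and tests were chosen with earlier results of these data known, and the limit of 0.5 between the controls, the gene families and the genes drawn or printed were chosen after values were seen. Genes were named by rule: targeted genes, the 12 largest members, those at the threshold, up to 3 members of each list, the 5 highest and 5 lowest control levels, and the 5 largest and 3 smallest differences of Dnmt1 KD from Tet1 and Mbd2 KD. Other members named for their role were picked after their values were seen. Alternatives were other normalizations, background corrections, floors, filters, probe rules, thresholds, blocks, and leaving out each array. Replicate numbers did not pair the samples.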

Additional observations from a re-analysis of the deposited data

How the results depend on the processing

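The 250 genes meeting the rule became 465, 118 and 20 at thresholds of 0.6, 1 and 1.5, 129 after normexp background correction and quantile normalization, and 115 when measured from the higher control array. Leaving out 1 array gave 223 to 697, with 664 without EGFP KD replicate 2, 697 without Mbd3 KD replicate 1 and 389 without Chd4 KD replicate 1. Not all of these were members. Of the 129 with normexp, 109 were members. Of the 223 without EGFP KD replicate 1, 139 were, and of the 664 without replicate 2, 226 were. With the probes of a gene averaged, 223 genes met the rule and 216 of them were members, where 54 members had more than 1 probe. Members passing as higher in Mbd3 KD (70) numbered 23 with no floor, 45 with probes above background on all 12 arrays, 22 with slide as a block, 106 and 13 at adjusted p of 0.1 and 0.01, and 16 to 52 without 1 array. Those in Chd4 KD (108) numbered 70 at 0.01 and 61 to 113 without 1 array. Fitting only the 4 arrays of a comparison gave 0 for both. The median of Tet1 KD minus EGFP KD over all members (0.42) was 0.18 after quantile normalization, 0.12 with normexp, 0.28 with probes above background on all 12 arrays, 0.23 with the slide block, 0.11 within slide 2, and 0.11 to 0.45 without 1 array. That of Chd4 KD minus Mbd3 KD (0.03) was -0.06 with normexp, -0.07 with the slide block and -0.03 to 0.07 without 1 array. Without 1 array the median ranged from 0.12 to 0.90 for Dnmt1 KD and from -0.03 to 0.47 for Mbd2 KD against control, from -0.03 to 0.51 for Dnmt1 KD minus the mean of Tet1 and Mbd2 KD, and from -0.07 to 0.57 for Dnmt1 KD minus Mbd2 KD. The cause of these changes was not tested.

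Over the 136 members with alike controls, an alternative added after seeing the data, the last 2 medians (0.24 and 0.26) ranged from 0.16 to 0.29 and from 0.22 to 0.32 without 1 array, the first was 0.35 after quantile normalization and the second 0.19 with normexp, and the 48 members at unadjusted p under 0.05 numbered 35 to 49. H2-K2 passed with normexp (limma, adjusted p = 0.0424). The Nsun7 difference (1.46) was 0.24 with its probes averaged. The replicate numbers did not pair the arrays by the criterion that every correlation of deviations be over 0.1 (lowest -0.042, median 0.383, highest 0.767 over 15 pairs of groups). With the replicate block 70 and 116 members passed as higher in Mbd3 KD and in Chd4 KD. The median of Dnmt1 KD minus the mean of Tet1 and Mbd2 KD over all members was 0.09 with or without that block. The block cannot change a difference between groups that each hold 1 array of each replicate number.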
